A study of Homo sapiens with 8 samples.

Results

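Of the 20136 protein-coding genes annotated on the main human chromosomes, 9 that serve invasion through the extracellular matrix were examined, namely the plasminogen activators PLAU and PLAT, the urokinase receptor PLAUR, and the matrix metalloproteinases MMP1, MMP2, MMP3, MMP9, MMP13 and MMP14. The genes were chosen by name, and every ChIP-Seq peak whose summit lay in the body of 1 of these genes or within 50 kb of any of its annotated transcription start sites (TSS) was collected. This gave 6 peaks of endogenous HoxC5 replicate 1 (of 2525), 2 of endogenous HoxC5 replicate 2 (of 170), 72 of overexpressed HoxC5 (of 67196) and 120 of overexpressed Pbx4 (of 153620). Merged where they overlapped, they formed 140 sites.

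The series measured where the homeodomain protein HoxC5 and its partner Pbx4 bind in PC-3, an established line of human prostate cancer cells. PC-3 cells without overexpression (the control genotype) were immunoprecipitated with an antibody to HoxC5 in 2 libraries, PC-3 cells overexpressing HoxC5 were immunoprecipitated with the same HoxC5 antibody in 1 library, and PC-3 cells overexpressing Pbx4 were immunoprecipitated with a Pbx4 antibody in 1 library. All groups share the line, no treatment is given, and the 4 input libraries of sonicated chromatin were not used here. The methods of the study state only an average depth over its libraries and the lists hold no read numbers, so the depth behind each list is unknown. Nothing in the labels says that the 2 endogenous libraries came from separate cultures. Each overexpression has no replicate, and differences between the lists cannot be told apart from differences between single libraries, antibodies and cells. The lists also end at different limits, since the largest q-value was 0.00997 for overexpressed HoxC5 and between 0.0398 and 0.0499 for the others.

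The plasminogen activators cut plasminogen into plasmin, a broad protease that degrades fibrin and activates other proteases. PLAU encodes urokinase, which works on the cell surface when held by its receptor PLAUR, whereas PLAT encodes tissue-type plasminogen activator, which acts mainly on fibrin. The matrix metalloproteinases are zinc enzymes made as inactive precursors: MMP1 and MMP13 cut fibrillar collagens, MMP3 (stromelysin) cuts other matrix proteins and other precursors, MMP2 and MMP9 (the gelatinases) cut denatured collagen and basement membrane, and MMP14 is anchored in the membrane and activates MMP2. Several of these genes are textbook targets of AP-1, the dimer of Fos and Jun proteins, through the word TGACTCA, which reads TGAGTCA on the other strand.

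The sites on which the results turn are printed first, on build hg19 and 5′ to 3′, so that their words can be read beside the values. The first line is the stretch that ends at the outermost TSS of PLAU (chr10:75668820-75668934, plus strand), which is not its canonical TSS. PLAU was the only gene of the group with a peak of all 4 lists within 1 kb of an annotated start. The next 2 lines are the other PLAU sites that carried the AP-1 word at an endogenous summit, upstream (chr10:75659281-75659381) and downstream (chr10:75692231-75692331). They are followed by the site near MMP1 with a peak in both endogenous replicates (chr11:102654527-102654627), the AP-1 site upstream of MMP3 (chr11:102722191-102722291), the strongest overexpressed HoxC5 site of MMP13 (chr11:102867148-102867248) and its strongest Pbx4 site (chr11:102828807-102828907). All 7 are given on the plus strand. Capitals mark the AP-1 word TGACTCA or TGAGTCA, in the line of the HoxC5 site of MMP13 also TCATTA (the Hox word TAATGA on the other strand), and in the PLAU line TGAAGTCA, which differs in 1 letter from the related CRE word TGACGTCA.
PLAU start: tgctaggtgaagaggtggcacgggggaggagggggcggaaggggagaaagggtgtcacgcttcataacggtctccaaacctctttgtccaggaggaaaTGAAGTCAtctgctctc
PLAU upstream: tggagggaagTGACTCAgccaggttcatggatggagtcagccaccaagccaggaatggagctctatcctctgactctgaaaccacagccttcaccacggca
PLAU downstream: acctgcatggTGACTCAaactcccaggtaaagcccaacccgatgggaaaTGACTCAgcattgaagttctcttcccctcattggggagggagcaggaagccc
MMP1 endogenous site: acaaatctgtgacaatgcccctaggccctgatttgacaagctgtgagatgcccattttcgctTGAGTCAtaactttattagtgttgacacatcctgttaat
MMP3 upstream: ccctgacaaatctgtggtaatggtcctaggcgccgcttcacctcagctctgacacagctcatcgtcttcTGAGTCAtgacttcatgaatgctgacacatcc
MMP13 far upstream: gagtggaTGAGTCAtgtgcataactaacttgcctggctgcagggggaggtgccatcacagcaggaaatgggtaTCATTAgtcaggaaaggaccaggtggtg
MMP13 upstream Pbx4: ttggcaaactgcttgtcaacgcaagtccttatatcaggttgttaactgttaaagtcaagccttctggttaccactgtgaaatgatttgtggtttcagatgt

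Endogenous HoxC5 peaks were found at 2 of the 9 genes, PLAU and MMP1, and at the same genes in both replicates. This rests on the weaker peaks: with a fold of at least 5, replicate 1 kept only PLAU and replicate 2 only MMP1, and with −log10 q of at least 3, replicate 2 lost PLAU. Under the same rule 17.2% of all protein-coding genes had a peak of replicate 1, 1.47% had a peak of replicate 2 and 17.3% had a peak of either. The share of replicate 1 among the 9 genes is therefore near that of all genes, and 2 genes are too few to read more from replicate 2. All 6 endogenous peaks of replicate 1 overlapped a peak of overexpressed HoxC5 and a peak of overexpressed Pbx4, beside 76.4% and 70.8% of the whole list. Fold enrichment at these 6 peaks was modest, between 3.06 and 5.49 with a median of 3.80, where the median of the list was 4.98.

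With overexpression, 8 of the 9 genes had a HoxC5 peak and 8 had a Pbx4 peak, MMP2 being the exception in both lists. Most genes of the genome met these rules (87.8% for HoxC5 and 93.1% for Pbx4), so having a peak sets none of the 8 apart. The number of peaks varied more. Per 100 kb of window, the overexpressed HoxC5 list held 21.6 peaks at PLAU, 11.4 at MMP14, 10.2 at PLAT, 9.0 at MMP13, 6.65 at MMP1, 4.77 at MMP3, 3.51 at PLAUR, 3.0 at MMP9 and 0 at MMP2. The median of all genes was 3.15, with quartiles of 1.41 and 5.63. The Pbx4 list held 24.5 at PLAU, 19.9 at MMP1, 19.1 at MMP3, 18 at MMP13, 14.3 at MMP14, 11.8 at PLAT, 8.77 at PLAUR, 7.0 at MMP9 and 0 at MMP2, where the median of all genes was 5.98. The order of the genes thus differed between the lists: MMP1 and MMP3 stood above the 90th percentile of all genes for Pbx4 (13.0 per 100 kb) and below it for HoxC5 (8.24 per 100 kb). Their windows overlap on chromosome 11, and 3 HoxC5 peaks and 11 Pbx4 peaks are counted for both. The same was seen at the neighbouring genes MMP10 and MMP12, so it is not particular to MMP1 and MMP3. Their windows of 100 kb, which overlap those of MMP1 and MMP3, held 17 and 15 Pbx4 peaks and 8 and 3 HoxC5 peaks.

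**Figure D1:**
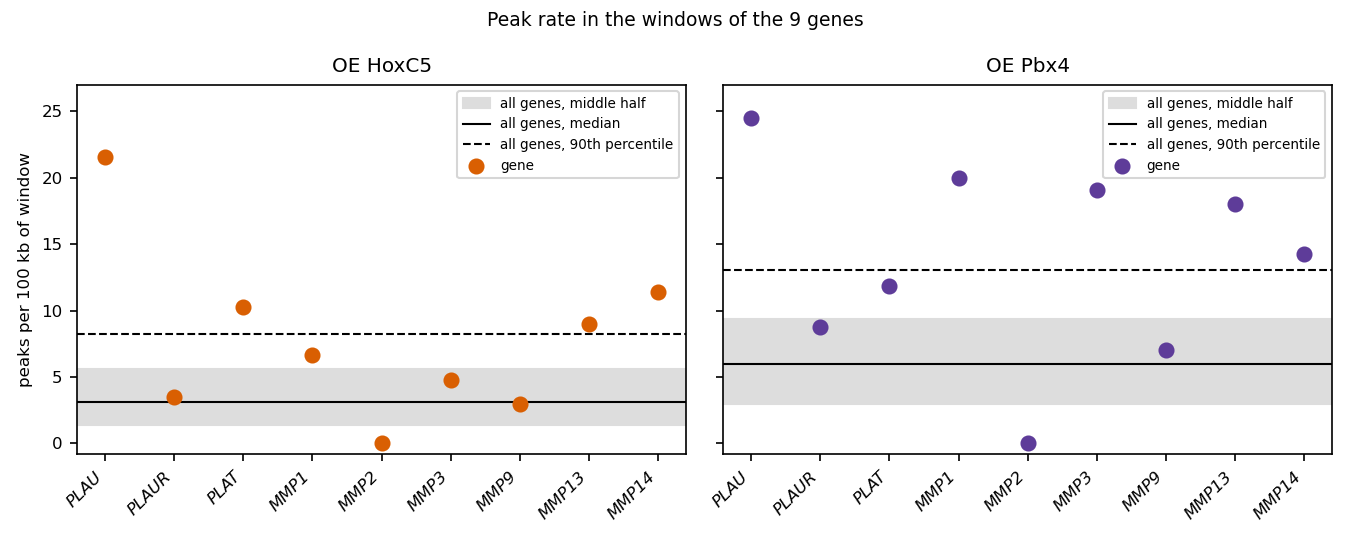
Peaks per 100 kb of window (vertical axis) for each of the 9 genes in the overexpressed HoxC5 list (left) and the overexpressed Pbx4 list (right), with the median, the quartiles (grey band) and the 90th percentile of all 20136 protein-coding genes. PLAU is the highest in both panels (21.6 and 24.5), MMP2 is at 0 in both, and MMP1 and MMP3 are above the 90th percentile only on the right.

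PLAU, the gene of urokinase, lies at chr10:75668935-75677254 on the plus strand and has 5 annotated start sites, of which the canonical one is at 75670890 and the outermost at 75668935. Its window of 102 kb held 5 endogenous peaks in replicate 1 and 1 in replicate 2, while overexpressed HoxC5 had 22 and overexpressed Pbx4 had 25. The site at the outermost start, part of which is the sequence printed first, was shared by all 4 lists. Only the summit of replicate 2 lay in the printed stretch, and the other summits lay past its end. Replicate 1 had a fold enrichment of 3.46 there (−log10 q of 8.02), replicate 2 had 3.55 (−log10 q of 2.61), overexpressed HoxC5 had 11.5 and overexpressed Pbx4 had 12.4. The 2 endogenous values are close, but both were low in their lists, at rank 2301 of 2525 and rank 165 of 170 by fold. Both overexpressed values lie above them, and this was the strongest PLAU peak of both overexpressed lists. The summits lay between −3 and 91 bp from the outermost start. The word TGAAGTCA began at 75668918, with its middle at −1969 bp from the canonical TSS. It lay within 50 bp of the summits of replicate 2 and Pbx4, and farther from those of replicate 1 and overexpressed HoxC5. How often such a 1-letter change lies at other summits was not counted. No AP-1 word was whole within 50 bp of these summits, but both overexpressed peaks held the word farther out. The Meis word TGACAG lay within 50 bp of the summits of replicate 2 and of both overexpressed lists, outside the printed line. It was not within 50 bp of the summit of replicate 1. Within 1 kb of the canonical start there was no endogenous peak. Overexpressed HoxC5 had a fold of 4.65 there, at 87 bp, and Pbx4 had 2.80 at −767 bp, and neither overlapped a peak of the other list.

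The other endogenous PLAU peaks were upstream and downstream of the gene, and distances are given from its canonical TSS. At −11.6 kb replicate 1 had a fold of 3.62, overexpressed HoxC5 of 9.41 and Pbx4 of 6.25, and the AP-1 word lay at the summit in all 3 lists. At 21.4 kb the values were 5.49, 6.57 and 7.90, again with the AP-1 word at each summit. The sequence of this downstream site holds the word 2 times, and replicate 1 reached its highest fold of the 9 genes here. Without that word, replicate 1 also had peaks at −23.4 kb (3.06) and −22.5 kb (3.98), which lie nearer to the TSS of CAMK2G, the gene of a calcium-dependent kinase subunit. Both overexpressed lists carried AP-1 at 2 further PLAU sites without an endogenous peak, at −16.4 kb (8.43 for HoxC5, 8.56 for Pbx4) and at 30.4 kb (5.16 and 6.01). Of the 22 overexpressed HoxC5 peaks, 16 overlapped a Pbx4 peak and 4 had the AP-1 word at the summit, and of the 25 Pbx4 peaks 6 had it.

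The peaks of PLAU were numerous but not tall, and their significance was high for their height. For each peak, −log10 q was divided by the median −log10 q of the peaks nearest to it in fold in its own list, so that a typical peak has a ratio of 1.00. The median ratio in the PLAU window was 3.01 for overexpressed HoxC5, 2.50 for Pbx4 and 3.04 for endogenous replicate 1, whereas the 1 peak of replicate 2 had 0.893. In the 1 Mb to either side of the window the medians were 2.26, 1.88 and 1.41 for the first 3 lists, and 71.9% of the HoxC5 peaks and 58.0% of the Pbx4 peaks exceeded the 95th percentile of their list (1.85 and 1.80). At the other 7 genes with peaks, the median ratio of the overexpressed lists lay between 0.868 and 1.52. At a given fold, −log10 q rises with the number of reads. The part of this regional excess in the number of PLAU peaks was not tested, since reads were not analysed here. With a fold of at least 5, PLAU kept 9 of its HoxC5 peaks, beside 10 at PLAT and 10 at MMP14, and so was no longer the highest in count. For Pbx4 it kept 18 and remained the highest, the next being MMP1, MMP3 and MMP13 with 15 each.

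**Figure D2:**
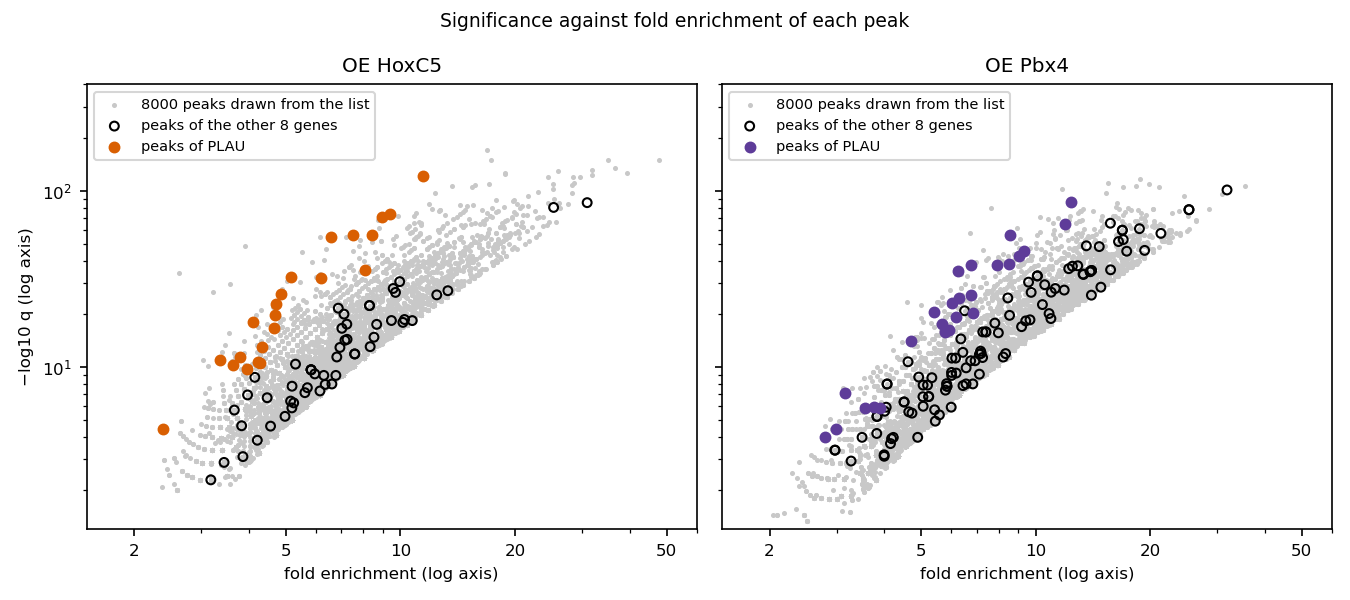
The −log10 q-value (vertical, log axis) of each peak against its fold enrichment (horizontal, log axis) for overexpressed HoxC5 (left) and overexpressed Pbx4 (right), with 8000 peaks drawn at random from each list in grey, the peaks of PLAU filled and those of the other 8 genes as open circles (MMP2 has none). The PLAU peaks run along the upper edge of the cloud, with median ratios of 3.01 and 2.50 to typical peaks of the same fold, while those of the other genes lie mostly inside it.

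PLAT, the gene of tissue-type plasminogen activator, lies at chr8:42032236-42065227 on the minus strand and had no endogenous peak in its window of 127 kb. The endogenous peak of replicate 1 nearest to it was 61.3 kb away. It had 13 peaks of overexpressed HoxC5 and 15 of Pbx4, of which 7 HoxC5 peaks overlapped Pbx4. Measured from the start of the gene record alone, in place of all its start sites, it had 7 HoxC5 and 12 Pbx4 peaks. Near the canonical start both lists had a peak, at a fold of 7.15 for HoxC5 and 8.22 for Pbx4, with no AP-1 word at the summit. Inside the gene both had peaks at 21.8 kb (6.30 and 6.93) and about 11 kb from the start (6.77 at 11.2 kb and 10.8 at 11.1 kb), each within 1 kb of an inner start site. HoxC5 alone had a peak with the AP-1 word at 12.5 kb (4.56), also within 1 kb of an inner start. The strongest HoxC5 peak in this window, at 30.9, ranked 52 in the whole list. It lay at −17 bp from the start of AP3M2, the gene of an adaptor protein of vesicle traffic, held the Hox-Pbx word at its summit and overlapped no Pbx4 peak. The strongest Pbx4 peak (15.7) lay at −49.2 kb, nearer to the TSS of IKBKB, a kinase of the NF-kappa-B pathway, and HoxC5 had 7.23 there.

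PLAUR, the gene of the urokinase receptor, lies at chr19:44150247-44174699 on the minus strand and also lacked endogenous peaks, the nearest of replicate 1 being 98.0 kb away. Its 4 overexpressed HoxC5 peaks all overlapped some of its 10 Pbx4 peaks. At the canonical start, HoxC5 had a fold of 5.70 with the summit at −133 bp and Pbx4 had 6.02 with the summit at −237 bp, in an exon of a longer transcript. A second pair lay in the gene at 1.13 kb (4.21) and 1.22 kb (6.44), within 1 kb of an inner start. At −5.47 kb HoxC5 had a fold of 5.15 with the AP-1 word at the summit. The overlapping Pbx4 peak, at −5.34 kb, was the strongest of PLAUR at 11.9, and its summit was without the word. The strongest HoxC5 peak (10.2, with 7.98 for Pbx4) lay at −31.3 kb, nearer to the TSS of IRGC.

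MMP1, the interstitial collagenase (chr11:102660132-102668891, minus strand), was the other gene with endogenous peaks. Both replicates had a peak at the same site, with a fold of 4.43 in replicate 1 and 6.49 in replicate 2. Overexpressed HoxC5 had 9.58 there and Pbx4 17.0, so the 4 values run in the order replicate 1, replicate 2, HoxC5 and Pbx4, each from another library. The summits lay between 14.2 and 14.4 kb downstream of the canonical TSS, beyond the end of the gene and between −3.32 and −3.18 kb from the start of MMP10 (stromelysin 2), which is the nearest. The AP-1 word was at the summit of replicate 2 and of Pbx4 and outside the 50 bp at the other 2 summits. At the promoter of MMP1 there was no endogenous peak. Overexpressed HoxC5 had a fold of 8.30 (top 23.9% of its list) and Pbx4 had 25.3, which ranked 133 of its list. Over the 9 genes Pbx4 exceeded HoxC5 in fold at 35 of the 48 shared sites. Over the whole list it did so for 28967 of 45492 shared HoxC5 peaks (63.7%), counted singly. At MMP1 it did so at 6 of the 7 shared sites. The exception was a site in an intron at 6.34 kb, where HoxC5 had 7.59 and Pbx4, with the AP-1 word at its summit, had 2.97. The strongest HoxC5 peak of the window (10.3) lay at −23 bp from the start of MMP10.

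MMP13, collagenase 3 (chr11:102813724-102826461, minus strand), had no endogenous peak but held strong peaks of both overexpressed lists. At its promoter HoxC5 had a fold of 7.11 and Pbx4 4.62, and both summits had the AP-1 word. The strongest HoxC5 peak of the metalloproteinases was at −40.7 kb, with a fold of 25.3 (rank 155) against 6.51 for Pbx4, and the AP-1 word lay at both summits. The reverse held at −2.40 kb, where Pbx4 reached 31.8, rank 13 of 153620, against 8.33 for HoxC5. This window, printed as the last of the sequences, held none of the words searched. A further AP-1 site at −19.4 kb had 13.3 for HoxC5 and 11 for Pbx4. Of the 9 HoxC5 peaks 3 had the AP-1 word, and of the 18 Pbx4 peaks 7 had it.

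MMP3, stromelysin 1 (chr11:102706532-102714340, minus strand), had Pbx4 at its promoter with a fold of 10.1 but no HoxC5 peak there. Upstream, HoxC5 had 6.87 at −7.90 kb and Pbx4 14.7 at −7.95 kb, each with the AP-1 word at the summit. Another HoxC5 peak at −7.52 kb (6.94) fell within the same Pbx4 peak. The other 3 HoxC5 peaks in the window were those of MMP1, including the promoter of MMP1 with 8.30 and 25.3. Apart from the MMP1 promoter, the strongest Pbx4 peak of the window was 19.3 at −39.3 kb, nearer to MMP12, the macrophage elastase.

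MMP9, gelatinase B (chr20:44637547-44645200, plus strand), was the sparsest of the genes with peaks. None of its 3 HoxC5 and 7 Pbx4 peaks lay in the gene or within 1 kb of its only TSS, and the closest was a Pbx4 peak at −3.99 kb (7.81). The site with AP-1 at both summits lay at −36.3 kb (9.71 for HoxC5 and 8.45 for Pbx4), and is −0.412 kb from the TSS of ZNF335, the gene of a zinc finger protein. At −13.2 kb Pbx4 had 18.7, its strongest in this window, and HoxC5 3.97. At −15.2 kb they had 15.7 and 4.15.

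MMP2, gelatinase A (chr16:55423612-55540603, plus strand), had no peak in any of the 4 lists, although its window of 216 kb was the longest of the group. Of all genes 5.41% had no peak in any list, and of the 2434 genes with a window at least as long 73 (3.0%) had none. The nearest summit was 850 kb away for overexpressed HoxC5 and 739 kb for Pbx4. MMP2 thus lies in a stretch without a summit of 2220 kb in the HoxC5 list and 2165 kb in the Pbx4 list, which also holds 8 other genes, among them the homeobox genes IRX3, IRX5 and IRX6. Stretches between neighbouring summits that were at least as long and free of unsequenced bases numbered 33 in the HoxC5 list and 15 in the Pbx4 list. Whether reads covered this stretch was not tested.

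MMP14, the membrane-type metalloproteinase (chr14:23305769-23318250, plus strand), had 12 HoxC5 peaks, of which 5 overlapped 1 of its 15 Pbx4 peaks, and no endogenous peak. At its promoter HoxC5 had a fold of 8.52 and Pbx4 had no peak. HoxC5 also had peaks at 0.646 kb (5.19) and 1.35 kb (5.61), within 1 kb of inner starts and without Pbx4. Its strongest HoxC5 peak, 9.96 at 14.9 kb, had the AP-1 word at the summit. Pbx4 had 9.73 at 15.1 kb, within the same site and without the word at its summit. The strongest Pbx4 peak of the window, 21.3 at −15.6 kb, was −0.117 kb from a start of SLC7A7, an amino acid transporter.

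Sharing between the overexpressed lists was close to that of the lists as wholes for HoxC5 and higher for Pbx4. Of the 72 HoxC5 peaks 51 (70.8%, exact 95% interval 58.9 to 81.0) overlapped a Pbx4 peak, beside 67.7% of the list. Of the 120 Pbx4 peaks 49 (40.8%, 31.95 to 50.2) overlapped a HoxC5 peak, beside 28.5% of the list, and without PLAU 34 of 95 (35.8%, 26.2 to 46.3) did. With summits at most 100 bp apart, 29.2% (21.2 to 38.2) of the Pbx4 peaks were shared, beside 21.97% of the list. These intervals cover counting error only and treat neighbouring peaks as independent. By gene, 8 of 9 had a HoxC5 peak that overlapped a Pbx4 peak, where 76.8% of all genes had one. Of the 140 merged sites, 48 had a peak in both overexpressed lists, 21 in HoxC5 alone and 71 in Pbx4 alone, and each endogenous peak fell among the 48. Ranked within its own list, the Pbx4 peak stood higher at 32 of the 48 sites, where each site took the highest-ranked peak of each list. Over all shared HoxC5 peaks this was so for 27293 of 45492, but these are single peaks and not merged sites.

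The AP-1 word was whole within 50 bp of the summit in 13 of the 72 HoxC5 peaks (18.1%, 9.98 to 28.9) and in 23 of the 120 Pbx4 peaks (19.2%, 12.6 to 27.4). Over the whole lists it was 20.5% and 18.5%, and at positions 1 kb to the right of all summits 1.71% and 1.80%. The peaks near the 9 genes therefore carried the word about as often as peaks elsewhere, within wide intervals. By gene, 7 of 9 had a HoxC5 peak with the word and 8 of 9 a Pbx4 peak with it, where 46.9% and 68.4% of all genes did. MMP1 was the gene with HoxC5 peaks and no word within 50 bp of any of their summits. Some of these MMP1 peaks, including the one at its promoter, held the word within 100 bp of the summit. HoxC5 peaks that overlapped Pbx4 had the word in 12 of 51 cases (23.5%, 12.8 to 37.5), those that did not in 1 of 21 (4.76%, 0.120 to 23.8), and over the list it was 26.7% and 7.51%. In the endogenous lists 2 of 6 and 1 of 2 peaks had it, where the lists had 16.0% and 14.1%.

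Other words were searched on both strands in the same way, and the share of each list lay within the interval of the peaks near the 9 genes. The Meis word TGACAG was at 19 of the 120 Pbx4 summits (15.8%, 9.81 to 23.6), beside 10.4% of the list, and at 7 of the 72 HoxC5 summits (9.72%, 4.00 to 19.0), beside 7.88%. The Hox word TAATGA was at 8 HoxC5 summits (11.1%, 4.92 to 20.7, list 8.41%) and 8 Pbx4 summits (6.67%, 2.92 to 12.7, list 7.61%). The forkhead word GTAAACA was at 5 HoxC5 summits (6.94%, 2.29 to 15.5, list 3.0%) and 4 Pbx4 summits (3.33%, 0.916 to 8.31, list 3.84%), and the Hox word TAATTA at 1 of each. The Hox-Pbx words TGATTGAT and TGATTAAT were at 1 and 0 HoxC5 summits and at 0 and 1 Pbx4 summits, and the CRE word TGACGTCA and the ETS word CCGGAAGT were at none. A match of letters is a description of the sequence and not a binding site.

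The Pbx4 peaks near the 9 genes also lay near start sites of some gene more often than their list, while for HoxC5 the share of the list lay within the interval. Of the HoxC5 peaks 30.6% (20.2 to 42.5) were within 1 kb of a TSS, beside 23.1% of the list, and of the Pbx4 peaks 19.2% (12.6 to 27.4), beside 8.67%. The rule itself selects the surroundings of genes, so no more is read from this. Among Pbx4 peaks, 23 of 120 (19.2%, 12.6 to 27.4) were in the top 10.0% of the list by fold, while 5 of 72 HoxC5 peaks (6.94%, 2.29 to 15.5) were. Most of these 23 Pbx4 peaks lay in the overlapping windows of MMP1 and MMP3.

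Other genes of the same systems were counted by the same rule. Under it, 17.3% of all genes had a peak of either endogenous replicate, 87.8% had one of overexpressed HoxC5 and 93.1% had one of Pbx4. Of 11 further genes of the plasminogen system, 3 had an endogenous peak of replicate 1, beside 17.2% of all genes, and none of replicate 2. These were LRP1 (2 peaks), a receptor that clears activator and inhibitor complexes, and ANXA2 (1) and S100A10 (1), whose products together hold plasminogen at the cell surface. HoxC5 peaks under overexpression were at 9 and Pbx4 peaks at 10 of the 11, with the most HoxC5 peaks at S100A10 (18), and SERPINA5 had none in any list. Of 17 other metalloproteinases, 1 had endogenous peaks, namely MMP10 through the site it shares with the window of MMP1. Overexpressed HoxC5 had peaks at 16 and Pbx4 at 16, but MMP26 had no HoxC5 peak and MMP11 no Pbx4 peak. The long window of MMP16 held the most HoxC5 peaks (21). Of 8 inhibitors and inducers, TIMP2 alone had endogenous peaks (2) and the most HoxC5 peaks (12), 7 had peaks in each overexpressed list, and TIMP3 had none in any list. Of 7 membrane serine proteases and their inhibitors, SPINT1 had 1 endogenous peak, all 7 had peaks in both overexpressed lists, and SPINT2 had the most of HoxC5 (13).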

How the data were processed

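Peak lists of 4 ChIP-Seq libraries of PC-3 cells were analysed. The authors aligned reads to hg19 with BWA-MEM, filtered out PCR duplicates using SAMtools and ran MACS2 to call the peaks of each library. The MACS2 version and its control sample are not given in the sources used here. Per peak, the deposited narrowPeak files give a score, the fold enrichment (a ratio), −log10 p and −log10 q, and the summit offset. Fold and −log10 q were used as deposited, and the score (which follows −log10 q) and −log10 p were not used. The lists give no read counts, so depth per library is unknown.

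Genes and TSSs came from GENCODE release 44 on hg19, and the canonical TSS is that of the transcript tagged canonical. A peak belonged to a gene if its summit lay in the gene body or within 50 kb of a TSS. Peaks overlapped if they shared at least 1 bp. Words were searched on both strands of hg19, whole within 50 bp of the summit and at 1 kb to its right. Intervals are exact (Clopper-Pearson, 95%) and cover counting error only. No test was run, since each overexpression has 1 library. The members, gene lists and measures were chosen with earlier results of these data known. Single peaks were named if they were endogenous, within 1 kb of a TSS of the gene, carried AP-1 at the summit in both overexpressed lists or were the strongest of their gene in a list. Peaks named outside this rule were chosen after their values were seen, as were the ratio of −log10 q at equal fold, the stretch around MMP2 and the sequences printed. Of the other gene lists, genes with an endogenous peak and the gene with the most HoxC5 peaks were named, and genes without peaks were added after their values were seen. Of the plasminogen list, 1 gene is not reported here. The scripts were tested on simulated data. Python 3.11.15, pandas 2.3.3, scipy 1.17.1 and pysam 0.24.0 were used.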

Additional observations from a re-analysis of the deposited data

How the results depend on the processing

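Every value rests on 1 library per overexpression and on lists with different limits, and no result is a test. No paired analysis was possible because no result comes from a test. Of the 72 recomputed values that answer a comparison, 47 stayed within 1.5 times or within their interval, and 25 moved. With windows of 10 kb the peaks of endogenous replicate 1 became 3, those of overexpressed HoxC5 31 and those of Pbx4 35, and with windows of 100 kb HoxC5 had 114, Pbx4 196 and 5 genes a peak of replicate 1, as windows of other sizes must give other counts. With a fold of at least 5, replicate 1 kept 1 peak at 1 gene (PLAU) and replicate 2 kept 1 at 1 gene (MMP1), so that no gene was shared. With −log10 q of at least 3, replicate 2 kept 1 peak at 1 gene (MMP1), while the overexpressed lists kept 70 and 119 peaks. Leaving out 1 endogenous replicate left between 2 and 6 merged endogenous peaks. Sharing of HoxC5 with Pbx4 was 45.8% under a reciprocal overlap of at least 50% and 48.6% with summits at most 100 bp apart (whole list 37.2% and 50.2%), and sharing of Pbx4 with HoxC5 was 27.5% and 29.2% (exact 95% intervals 19.7 to 36.4 and 21.2 to 38.2, whole list 16.3% and 21.97%), so the list lay below the interval under the former rule and within it under the latter. The AP-1 share of HoxC5 peaks was 9.72% within 25 bp, 31.9% within 100 bp and 34.7% anywhere in the peak (whole list 11.1%, 29.2% and 31.9%), and that of Pbx4 peaks was 10.0%, 35.0% and 42.5% (9.26%, 29.1% and 35.1%). With the start of the gene record alone, 7 HoxC5 and 6 Pbx4 peaks lay within 1 kb of the start. Without the PLAU window, an alternative chosen after seeing the data, the AP-1 shares were 18% and 17.9%. Of the counts for single genes, 175 stayed within the same limits and 41 moved.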

Other observations

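The endogenous site near MMP1 and the AP-1 site upstream of MMP3 resembled each other in sequence. Aligned end to end over 109 columns, the 2 windows were identical at 70 (64.2%), the highest alignment score of the 45 pairs among 10 printed or inspected windows, and the pair next in score had 54.1%. The pair was chosen after its values were seen. Replicate 1, replicate 2, overexpressed HoxC5 and Pbx4 had folds of 4.43, 6.49, 9.58 and 17.0 at the site near MMP1. Upstream of MMP3 the endogenous lists had no peak, HoxC5 had 6.87 and Pbx4 14.7.

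With at most 1 letter of the AP-1 word changed, an alternative also chosen after seeing the data, 50% of the HoxC5 and 50% of the Pbx4 peaks near the 9 genes held it within 50 bp of the summit, beside 50.5% and 54.5% of the lists and 27.6% and 28.4% at positions 1 kb away.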
